A study of Mus musculus with 5 samples.

Results

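The proteasome subunit genes were followed in cultured mouse epidermal stem cells, which renew the keratinocytes of skin, with and without Angptl4. Members were all genes of the deposited table whose symbol begins with Psma, Psmb, Psmc or Psmd and a digit, without the interferon-inducible Psmb8, Psmb9 and Psmb10, plus Psme3, Psme4 and Pomp. This took 40 of 17657 genes, spread over 16 chromosomes. They are 16 genes of the 20S core, 17 of the 19S cap, 4 assembly chaperones, 2 activators and Psmc3ip, which the symbol rule takes although its product is a recombination factor and not a subunit. RNA came from cells of wild-type mice (WT, 3 libraries) and of Angptl4 knockout mice (KO, 2 libraries), all male, C57BL/6 and labelled 8 weeks, cultured in the keratinocyte medium KGM2. Angptl4 encodes a secreted inhibitor of lipoprotein lipase, and which part of the gene was removed is not stated in the labels. Whether replicate libraries stem from different mice, pooled mice or different cultures is not stated, so p-values measure the spread between these libraries only, which may be technical.

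The proteasome degrades proteins that carry ubiquitin chains. Its 20S core is a barrel of stacked rings, the outer rings built from alpha subunits that gate the entry and the inner rings from beta subunits, of which Psmb5, Psmb6 and Psmb7 cut the substrate. The 19S cap binds the ubiquitin chain, removes it, and unfolds the substrate with a ring of ATPases. Subunits are made in fixed proportions, and the transcription factor Nfe2l1 is known to raise their genes together when proteasome activity is limiting.

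Libraries held 20283084 to 20773407 expected counts, so that 1 CPM, a count scaled to a common library size, stood for about 21 counts. Angptl4 had 6.97, 5.76 and 4.13 CPM in WT1 to WT3, against 0.83 in KO1 and 1.06 in KO2, a log2 change of -2.56 ± 0.32 (SE, adjusted p = 0.00458). The KO libraries differed from each other far more than the WT libraries did (biological coefficient of variation 28.8 against 5.22%). Basal keratinocyte markers were abundant in every library, mostly through Krt5 and Krt14 (7 genes summing to 36806 to 37717 CPM in WT, 49219 in KO1 and 38494 in KO2). In that list Trp63 (log2 change -0.73) and Itga6 (-0.91) fell, while Itgb4 (0.49) and the hair follicle keratin Krt15 rose, the latter from 0.10 to 0.49 CPM in WT to 2.69 and 1.45 CPM in KO1 and KO2. The 4 markers of differentiated keratinocytes summed to 38.2 to 49.8 CPM in WT and to 362 and 72.4 CPM in KO1 and KO2, and Krt1 and Krt10 among them rose (log2 changes 4.26 and 2.32). Krt1 alone made up 333 and 36.9 CPM of the KO1 and KO2 sums. Ivl lay lower in KO, with 23.9 to 30.0 CPM in WT and 11.7 and 23.3 CPM in KO1 and KO2, but did not pass. Lor overlapped between the groups. Markers of other cells also moved with the groups. The 8 fibroblast markers summed to 2.28 to 8.38 CPM in WT and to 72.8 and 24.8 CPM in KO1 and KO2, with 4 of 7 tested members higher. The largest change among them was that of Postn (log2 change 6.87), from 0.05 to 0.19 CPM in WT to 17.2 and 7.01 CPM in KO1 and KO2. The 5 pericyte and smooth muscle markers summed to 231 to 263 CPM in WT and to 1774 and 627 CPM in KO1 and KO2, with 3 of 3 tested members higher. Most of these sums was Acta2, at 230 to 262 CPM in WT and 1746 and 581 CPM in KO1 and KO2. Cspg4 had the largest change (log2 change 7.24), from 0.19 to 0.24 CPM in WT to 25.8 and 44.7 CPM in KO1 and KO2. Rgs5 and Des were at 0 to 0.15 CPM in every library and were not tested. Endothelial markers summed to 4.65 to 5.41 CPM in WT and 2.94 and 3.09 CPM in KO1 and KO2, with Kdr lower. Pecam1 overlapped between the groups and did not pass. Cdh5 and Tek overlapped as well and were not tested. Melanocyte markers summed to 5.68 to 6.24 CPM in WT and 9.55 and 11.3 CPM in KO, with Mitf higher. Mitf was at 2.38 to 3.24 CPM in WT and made up 6.80 and 7.39 CPM of the KO1 and KO2 sums. Dct, Tyr, Pmel and Mlana overlapped between the groups and did not pass. Immune markers summed to 25.8 to 30.9 CPM in WT and 41.3 and 35.9 CPM in KO. Cd68, which makes up most of the sum, was higher, while the leukocyte gene Ptprc was at 0 to 0.15 CPM. Lyz2 went the other way, with 1.12, 1.35 and 0.10 CPM in WT and 0 and 0.14 CPM in KO1 and KO2, but did not pass. Itgam overlapped between the groups and did not pass. Of the single markers named that passed, Trp63, Itga6, Postn, Cspg4 and Mitf passed with each WT library left out. Itgb4, Krt15, Krt1, Krt10, Acta2, Kdr and Cd68 were lost without at least 1 WT library. The part of these differences in the results below was not tested. In bulk RNA, fewer cells of a type and less RNA per cell cannot be told apart.

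Most proteasome genes were lower in the KO cells, by a modest amount. Of 39 members with enough counts to be tested, 23 fell, 0 rose and 16 did not pass an adjusted p of 0.05 (edgeR's quasi-likelihood test, adjusted over all 12957 tested genes). Over all tested genes 20.4% were lower and 20.4% were higher at that threshold, so the 59.0% of members that fell stands beside 20.4%. The median log2 change was -0.38 over the members and 0.02 over all tested genes. At an unadjusted p under 0.05, 30 members were lower and 0 higher. DESeq2 and limma-voom each called 25 members lower, beside 20% and 21.1% of the genes they tested, and 0 higher, with Psmd8 higher in DESeq2 at an unadjusted p under 0.05. KO1 and KO2 both lay under the lowest WT value for 31 of 39 members and over the highest for 2 (Psmd8 and Psmb11), against 34.0 and 32.5% of all tested genes. The untested member was Psma8, the testis-specific relative of Psma7, with 1 count in WT1 and 0 elsewhere.

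The number of members past the threshold depended on the libraries used. It was 8, 9 and 8 without WT1, WT2 or WT3, where 7.60, 8.94 and 8.77% of all tested genes were lower. It was 34 without KO1 and 29 without KO2, where 30.5 and 30.9% of all tested genes were lower, and 29.3 and 30.0% higher. With a lone KO library its spread was assumed to equal that of WT. Psmd8 was then the 1 member higher without KO2. Psma3, Psmb7, Psmc1, Psmc6, Psmd7, Psmd12, Psmd14 and Psmc3ip were the 8 members that stayed lower whichever library was left out. For the other 15 the call was lost without WT1 and without WT3, and for 14 of them also without WT2, Psma4 being the exception (adjusted p = 0.0489). With a separate spread for each group 17 members were lower, beside 12.1% of all tested genes, and with the replicate number as a block 3, beside 6.13%. In the smaller lists below, 0 higher in KO holds also at an unadjusted p under 0.05 in edgeR and limma-voom and, except for Psmd8, in DESeq2.

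**Figure D1:**
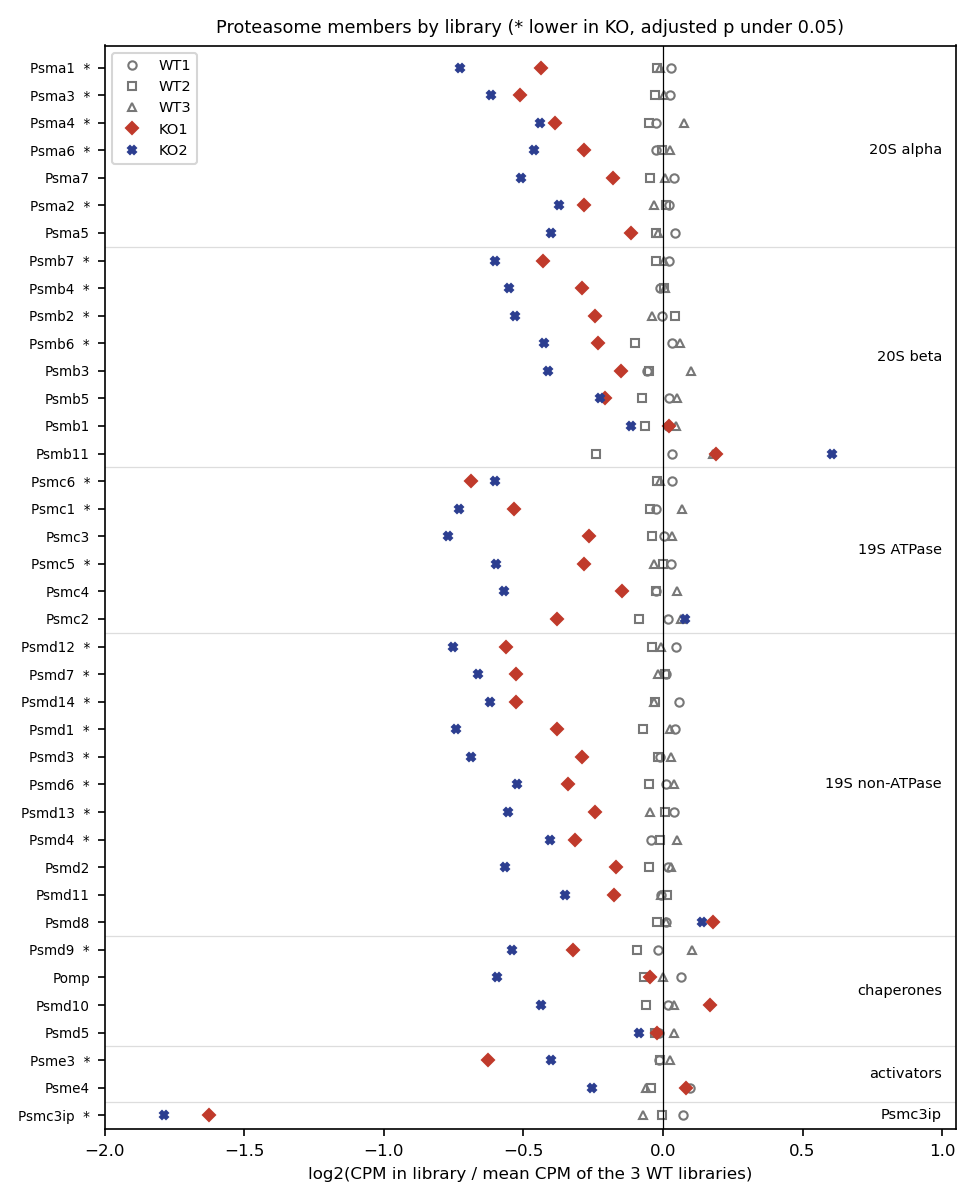
Level of each tested member in each library, as log2 of its CPM over the mean CPM of the 3 WT libraries, grouped by role; open symbols are WT and filled symbols KO, and an asterisk marks the 23 members lower in KO at an adjusted p under 0.05. Most KO points lie left of all WT points, Psmd8 and Psmb11 lie right of them, and KO2 lies left of KO1 in 35 of 39 members.

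Because the members moved together, their promoters were compared. Of the 40 members 33 were matched in RefSeq's promoter windows (GRCm38.p6, 300 bases, 250 before to 50 after the start), giving 35 windows; Psma8, Psmb1, Psmb2, Psmb7, Psmc3, Psmd3 and Psmd7 had no entry. The 160 bases before the start are shown for Psmc6 (chr14:45329664-45329823, plus strand) and Psmd12 (chr11:107479368-107479527, plus strand), the members with the largest falls of the cap. Psmb6 (chr11:70525197-70525356, plus strand), a catalytic subunit, and Psmd8 (chr7:29180674-29180833, minus strand), the constitutive subunit with both KO libraries above WT, are shown beside them. Each is written 5′ to 3′ on the gene's strand, and capitals mark the core of the ETS factor site (CCGGAAG, or CTTCCGG on the other strand) or of the antioxidant response element (TGACNNNGC), the site that Nfe2l1 and Nfe2l2 bind.
Psmc6: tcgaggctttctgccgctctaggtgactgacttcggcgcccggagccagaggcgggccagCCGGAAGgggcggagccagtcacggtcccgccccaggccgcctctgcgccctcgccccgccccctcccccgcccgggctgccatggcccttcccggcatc
Psmd12: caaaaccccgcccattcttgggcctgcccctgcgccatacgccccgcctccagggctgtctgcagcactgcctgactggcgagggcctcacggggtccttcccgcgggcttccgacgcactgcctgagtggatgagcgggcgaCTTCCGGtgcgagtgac
Psmb6: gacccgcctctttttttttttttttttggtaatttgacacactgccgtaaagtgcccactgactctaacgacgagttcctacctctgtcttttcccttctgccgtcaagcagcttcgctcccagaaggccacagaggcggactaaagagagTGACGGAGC
Psmd8: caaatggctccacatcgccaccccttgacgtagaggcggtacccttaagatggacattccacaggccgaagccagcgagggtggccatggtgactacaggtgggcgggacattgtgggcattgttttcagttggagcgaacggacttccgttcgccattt
Psmc6 and Psmd12 each hold an ETS core in this stretch, Psmb6 holds the response element core directly before the window's start point, and Psmd8 holds neither. For Psmb6 that point lies inside the deposited gene, which begins at 70525324. Psmc6 and Psmd12 also hold a response element core farther upstream, with first bases at -227 and -247. The ETS core was also in Psmc2, Pomp, Psme4, Psmd11 and Psmd2, which did not pass, and absent from Psma1, Psma3 and Psmd14, which fell. Whether it goes with the fall was not tested.

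Over all member windows and both strands, the ETS core was found in 15 of 35 windows (42.9%, 14 genes), against 16.8% of 13232 windows of tested genes and 8.86% of all 32851 windows. The antioxidant response element core was found in 6 windows (17.1%), those of Psmb5, Psmb6, Psmc6, Psmd9, Psmd12 and Psme4, against 14.3% of windows of tested genes. The CCAAT box was in 14 windows (40.0% against 37.8%), and the GC box (GGCGGG) in 24 (68.6% against 60.4%). The YY1 core (ATGGCG) was in 11 windows (31.4% against 14.5%) and the TATA box (TATAAA) in 4 (11.4% against 7.37%). These shares are a description of letters in a window. They came from 10 letter patterns, some of which overlap in sequence, and were chosen with counts known.

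In the alpha ring, which gates the barrel, all 7 tested genes had both KO libraries below WT, and 5 of them fell (median log2 change -0.37). Psma3 (chromosome 12, 70969283 to 70995877) was at 145, 139.8 and 143 CPM in WT1 to WT3, against 100.1 in KO1 and 93.0 in KO2. The log2 change was -0.56 ± 0.07 (SE, adjusted p = 0.00452), with a gap between the groups several times the spread within either. Psma1 was at 138, 134 and 135 CPM in WT and 100.2 and 82.0 CPM in KO1 and KO2, the largest fall of the ring (log2 change -0.57 ± 0.10, adjusted p = 0.0111). Psma4 was at 137, 134 and 146 CPM in WT and 106 and 103 CPM in KO (log2 change -0.41 ± 0.07, adjusted p = 0.011). Its fall was smaller and alike in both KO libraries. Psma2 and Psma6 fell by 0.33 and 0.37. The smallest difference was that of Psma5, at 83.8, 80.1 and 80.3 CPM in WT and 75.2 and 61.6 CPM in KO (log2 change -0.25 ± 0.10, adjusted p = 0.102). Psma7 did not pass either (log2 change -0.33, adjusted p = 0.0626). The 5 that fell became 1, 2 and 1 without WT1, WT2 or WT3, 7 without KO1 and 6 without KO2.

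In the beta ring 4 of 8 genes fell (median log2 change -0.30), Psmb2, Psmb4, Psmb6 and Psmb7. Of the catalytic subunits, Psmb7, which carries the trypsin-like site (chromosome 2, 38588046 to 38643952), was at 129, 125 and 127 CPM in WT and 94.0 and 83.5 CPM in KO1 and KO2. Its log2 change was -0.51 ± 0.08 (SE, adjusted p = 0.00728), and the groups lay far apart. Psmb6, with the caspase-like site, was at 136, 124 and 139 CPM in WT and 113 and 99.0 CPM in KO (log2 change -0.33 ± 0.09, adjusted p = 0.0413). Psmb5, with the chymotrypsin-like site and the target of the drug bortezomib, was at 113, 106 and 116 CPM in WT and 96.8 and 95.5 CPM in KO. Its KO values were nearly equal and below all WT values, yet it did not pass (log2 change -0.22 ± 0.07, adjusted p = 0.0584).

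Psmb1, Psmb2, Psmb3 and Psmb4 do not cut. Psmb4, with which the beta ring is completed, was at 142, 144 and 144 CPM in WT and 117 and 97.8 CPM in KO (log2 change -0.42 ± 0.10, adjusted p = 0.0224). Psmb2 was at 152, 157 and 148 CPM in WT and 129 and 106 CPM in KO (log2 change -0.38 ± 0.10, adjusted p = 0.0359). In both the KO libraries differed from each other by more than the WT libraries did. Psmb1 overlapped between the groups, with 153, 144 and 156 CPM in WT and 153 and 139 CPM in KO (log2 change -0.05, adjusted p = 0.677). Psmb3 had a log2 change of -0.28 (adjusted p = 0.0938). Psmb11, the catalytic subunit that takes the place of Psmb5 in the thymus cortex, was near the limit of detection at 0.73 to 0.97 CPM in WT and 0.98 and 1.305 CPM in KO (adjusted p = 0.30). The 4 that fell became 1, 1 and 1 without WT1, WT2 or WT3, 6 without KO1 and 5 without KO2.

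Among the 6 ATPases that unfold the substrate, 3 fell (median log2 change -0.46). Psmc6 (chromosome 14, 45329823 to 45349074) was at 127, 122 and 123 CPM in WT and 77.0 and 81.8 CPM in KO1 and KO2, a fall of 0.64 ± 0.07 (SE, adjusted p = 0.0034). The KO libraries were close together here. Psmc1 was at 183, 180.3 and 196 CPM in WT and 129 and 112 CPM in KO (log2 change -0.63 ± 0.09, adjusted p = 0.00654). Psmc5 was at 126, 124 and 121 CPM in WT and 102 and 81.9 CPM in KO (log2 change -0.43 ± 0.11, adjusted p = 0.0282). Psmc2 split the KO libraries, with 159.6, 148 and 165 CPM in WT, 121 CPM in KO1 and 167 CPM in KO2. KO1 lay below and KO2 above all WT libraries, and the gene did not pass (log2 change -0.13 ± 0.15, adjusted p = 0.511). Psmc3 and Psmc4 had log2 changes of -0.50 and -0.34 (adjusted p = 0.0527 and 0.0968). The 3 that fell became 2, 2 and 2 without WT1, WT2 or WT3, 5 without KO1 and 5 without KO2.

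Of the 11 non-ATPase subunits of the cap 8 fell (median log2 change -0.43). Psmd12, a scaffold of the lid (chromosome 11, 107479528 to 107498036), was at 147, 138 and 141 CPM in WT and 96.3 and 84.4 CPM in KO1 and KO2. Its fall of 0.65 ± 0.09 (SE, adjusted p = 0.00501) was the largest among the subunits of core and cap. Psmd14, the metalloprotease that cuts the ubiquitin chain off the substrate, was at 108, 101 and 101 CPM in WT and 71.6 and 67.3 CPM in KO (log2 change -0.57 ± 0.07, adjusted p = 0.00451). Psmd7, which pairs with Psmd14, was at 225, 224 and 220.3 CPM in WT and 155 and 141 CPM in KO (log2 change -0.59 ± 0.08, adjusted p = 0.00493). The partners of this deubiquitinating pair were thus lower by a similar amount. Psmd4, a ubiquitin receptor, was at 179, 183 and 191 CPM in WT and 148 and 139 CPM in KO (log2 change -0.36 ± 0.07, adjusted p = 0.0162).

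Psmd1, Psmd3, Psmd6 and Psmd13 fell by 0.55, 0.47, 0.43 and 0.39. Psmd2, the large scaffold that binds shuttle factors, had a log2 change of -0.35 (adjusted p = 0.0856) and Psmd11 one of -0.26 (adjusted p = 0.0502). Psmd8, a lid subunit, went the other way, with 251, 246 and 251 CPM in WT and 282 and 274 CPM in KO. Both KO libraries lay above every WT library, but the gene did not pass (log2 change 0.16 ± 0.07, adjusted p = 0.121; adjusted p = 0.0115 without KO2, range over its alternatives 0.0115 to 0.504). The 8 that fell became 3, 3 and 3 without WT1, WT2 or WT3, 10 without KO1 and 10 without KO2.

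The 20S core and the 19S cap were then set side by side. In the core 9 of 15 tested genes fell (60.0%, median log2 change -0.33) and in the cap 11 of 17 (64.7%, median -0.43). By library, the core median was -0.24 in KO1 and -0.44 in KO2, and the cap median -0.32 in KO1 and -0.60 in KO2, relative to the WT mean. The cap was the lower one in both KO libraries, but subunits are not replicates and the difference was not tested. The core count became 2, 3 and 2 and the cap count 5, 5 and 5 without WT1, WT2 or WT3. Without KO1 they numbered 13 and 15, and without KO2 11 and 15. With a separate spread for each group they numbered 5 and 10.

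Levels of different genes were compared as TPM, which is scaled by transcript length. The 14 core subunits other than Psma8 and Psmb11 summed to 3901, 3824 and 3948 TPM in WT1 to WT3, 3205 TPM in KO1 and 2819 TPM in KO2. KO1 and KO2 thus held 82.4 and 72.4% of the WT mean. The 17 cap subunits summed to 3562, 3489 and 3584 TPM in WT and to 2840.4 and 2526 TPM in KO1 and KO2. For the cap, KO1 and KO2 thus held 80.1 and 71.2% of the WT mean. The cap sum leaves out Adrm1 and the lid subunit Sem1, which the symbol rule does not take. Their mean TPM was 274 and 307 in WT and 213 and 294 in KO. In both complexes the groups did not overlap, and KO2 was the lower library. The mean TPM per subunit of the core was 1.33, 1.33 and 1.34 times that of the cap in WT and 1.37 and 1.36 times (1.355) in KO, so that the balance between core and cap shifted little while both sums were lower.

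**Figure D2:**
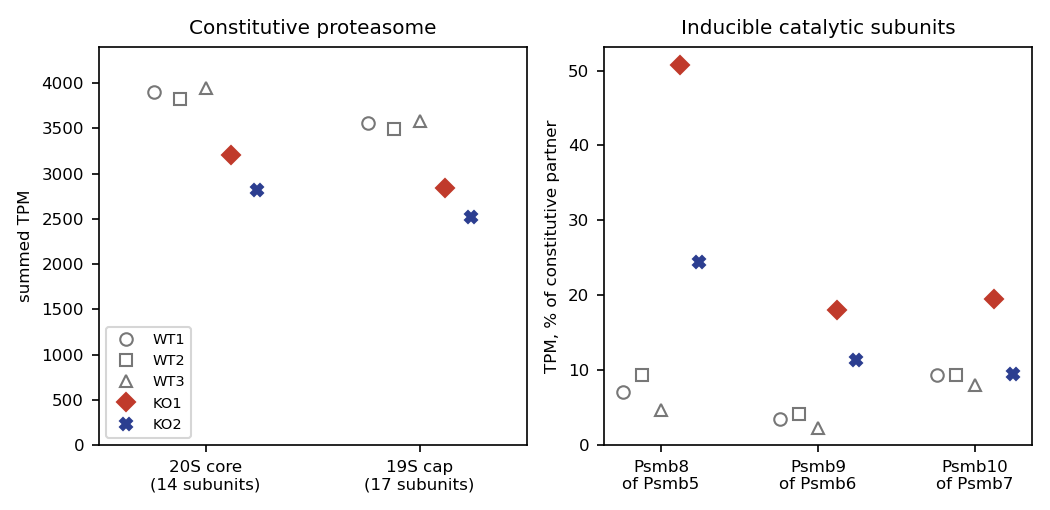
Left, summed TPM of the 14 constitutive core subunits and the 17 cap subunits in each library; right, TPM of each inducible catalytic subunit as a percentage of its constitutive partner in the same library. Core and cap sums are 82.4 and 80.1% of the WT mean in KO1 and 72.4 and 71.2% in KO2, and Psmb8 goes from 4.73 to 9.35% of Psmb5 in WT to 50.7 and 24.4% in KO.

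Within each complex, subunit RNAs were not equal. In the core, Psma5 was the lowest subunit (134 to 140.1 TPM in WT) and Psmb3 the highest (410.2 to 457 TPM), a ratio of 2.93 to 3.41, and both kept these places in KO1 and KO2 with a ratio of 3.06 and 3.12 (3.115). In the cap, Psmd8 was the highest in every library, at 329 to 334 TPM in WT and 370.5 and 361 TPM in KO. The lowest cap subunit was Psmd13 in the WT libraries and KO2 and Psmd14 in KO1. The ratio of highest to lowest in the cap was 2.66 to 2.82 (2.815) in WT and 4.02 and 4.38 in KO.

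The spread of TPM across the cap subunits (coefficient of variation) was 29.2, 30.8 (30.75) and 31.2% in WT and 42.0 and 47.3% in KO1 and KO2. Without Psmd8, a choice made after its values were seen, it was 26.7, 28.5 and 29.3% in WT and 31.2 and 33.5% in KO. In the core the spread was 22.7 to 25.6% in WT and 28.6 and 27.4% in KO. Ranked by mean TPM among the 31 core and cap subunits, Psmd8 went from place 3 in WT to 2 in KO1 and 1 in KO2, and Psmb1 from 5 to 4 and 3. Psmd7 went from place 8 in WT to 16 and 15, and Psma3 from 12 to 18 and 17. Psmc2 moved in 1 KO library only, from place 21 in WT to 21 in KO1 and 5 in KO2.

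**Figure D3:**
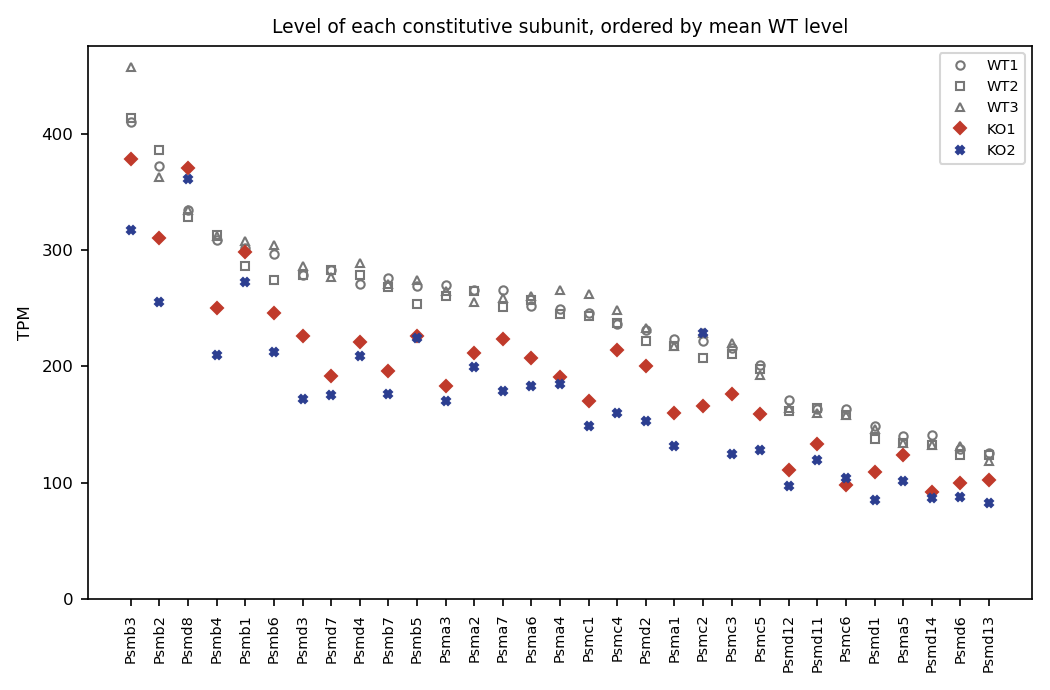
TPM of the 31 constitutive core and cap subunits in each library, ordered from left by the WT mean; open symbols are WT and filled symbols KO. Levels run from 427 TPM (Psmb3) to 123 TPM (Psmd13) in the WT mean, most KO points lie below WT, and Psmd8 lies above.

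Of the 4 assembly chaperone genes 1 fell (25.0%, beside 20.4% of all tested genes), with a median log2 change of -0.20. These values depended on the library, with 3 lower and a median of -0.50 without KO1, 1 lower and a median of -0.024 without KO2, and 0 lower without WT1, WT2 or WT3. Psmd9, which helps to build the ATPase ring, was at 34.4, 32.8 and 37.5 CPM in WT and 27.9 and 24.0 CPM in KO1 and KO2. Its log2 change was -0.43 ± 0.11 (SE, adjusted p = 0.03). The ATPase chaperone Psmd5 was level, with 57.2, 56.5 and 59.3 CPM in WT and 56.8 and 54.3 CPM in KO (log2 change -0.05 ± 0.07, adjusted p = 0.546). Psmd10, the chaperone also called gankyrin, was at 16.4, 15.5 and 16.6 CPM in WT, with KO1 above them at 18.2 CPM and KO2 below at 11.9 CPM (log2 change -0.10, adjusted p = 0.69). Pomp, which guides the beta ring during core assembly, was at 106, 96.9 and 101 CPM in WT and 98.1 and 67.2 CPM in KO. KO1 lay within the WT range and KO2 far below it, and the gene did not pass (log2 change -0.30 ± 0.17, adjusted p = 0.207). Psmd9 no longer passed when any of the WT libraries was left out (adjusted p = 0.102, 0.075 and 0.107; range over its alternatives 0.00207 to 0.166).

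Of the activators that can replace the 19S cap, Psme3 fell and Psme4 did not pass. Psme3, the activator of nuclear proteasomes, was at 293, 294 and 301 CPM in WT and 192 and 224 CPM in KO1 and KO2, a fall of 0.51 ± 0.09 (SE, adjusted p = 0.0122). KO1 was the lower library here, unlike in most subunits. It no longer passed when any of the WT libraries was left out (adjusted p = 0.0632, 0.0595 and 0.0627; range over its alternatives 2.31e-05 to 0.111). Psme4 was at 133, 121 and 119.7 CPM in WT and 132 and 104 CPM in KO, with KO1 inside the WT range (log2 change -0.08 ± 0.12, adjusted p = 0.642). Psmc3ip, the recombination factor, showed the largest fall among the members, from 8.43, 7.98 and 7.62 CPM in WT to 2.59 and 2.32 CPM in KO (log2 change -1.70 ± 0.16, adjusted p = 0.00278). The other 22 members that fell encode proteasome subunits, chaperones or activators.

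Inducible genes, which the rule leaves out, were examined beside the members. Psmb8, Psmb9 and Psmb10 replace Psmb5, Psmb6 and Psmb7 in the immunoproteasome, and Psme1 and Psme2 form its activator. Of these 5 genes 2 rose and 0 fell (0 also at an unadjusted p under 0.05 in edgeR, DESeq2 and limma-voom), against 20.4% of all tested genes that rose. Psmb8 was at 11.4, 14.2 and 7.81 CPM in WT and 70.1 and 33.3 CPM in KO1 and KO2 (log2 change 2.22 ± 0.38, adjusted p = 0.0098). Psmb9 was at 4.09, 4.45 and 2.72 CPM in WT and 17.9 and 9.67 CPM in KO (log2 change 1.87 ± 0.34, adjusted p = 0.011). KO1 was the higher library in both, and both calls were lost without WT1 (adjusted p = 0.0533 and 0.0531; ranges over the alternatives 4.44e-07 to 0.0533 and 1.34e-05 to 0.0531). Leaving out KO2 gave 5 higher, and leaving out KO1 gave 2 higher and 1 lower. Leaving out WT1, WT2 or WT3 gave 0, 2 and 2 higher. Psmb10 had 16.2, 15.6 and 13.6 CPM in WT, 24.4 CPM in KO1 and 10.7 CPM in KO2 (adjusted p = 0.645), so that it was lower without KO1 (adjusted p = 0.0122) and higher without KO2 (adjusted p = 0.00125), within alternatives that spanned adjusted p = 0.00125 to 0.955. Psme1 was at 48.3, 49.0 and 44.7 CPM in WT and 74.8 and 53.9 CPM in KO (log2 change 0.44, adjusted p = 0.0617). Psme2 was at 59.5, 57.4 and 53.2 CPM in WT and 107 and 60.0 CPM in KO (log2 change 0.56, adjusted p = 0.117). In both the KO values lay above WT, with KO2 close to it.

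As TPM in the same library, Psmb8 stood at 7.04, 9.35 and 4.73% of its partner Psmb5 in WT and at 50.7 and 24.4% in KO1 and KO2, a difference of 2.38 in the log2 ratio. Psmb9 stood at 3.52, 4.09 and 2.30% of Psmb6 in WT and 18.0 and 11.3% in KO, a log2 difference of 2.15. Psmb10 stood at 9.38, 9.35 and 8.03% of Psmb7 in WT and 19.5 and 9.55% in KO, a log2 difference of 0.62. In each pair both KO libraries lay above every WT library, and the two-sided exact permutation p was 0.2 (0.2 adjusted over the 3 pairs). That is the smallest p that 2 against 3 libraries can give.

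Partners of the proteasome that were listed apart from the members fell in 7 of 15 cases (46.7%, beside 20.4% of all tested genes), with 0 higher (median log2 change -0.30). Uchl5, a deubiquitinase that docks on the cap, was at 57.9, 52.7 and 52.8 CPM in WT and 27.7 and 25.9 CPM in KO, a fall of 1.02 ± 0.09 (SE, adjusted p = 0.00235), larger than that of any core or cap subunit. Usp14, the other deubiquitinase of the cap, was at 137, 131 and 133 CPM in WT and 82.6 and 72.7 CPM in KO (log2 change -0.78 ± 0.08, adjusted p = 0.00344). Txnl1, a thioredoxin-like protein bound to the cap, was at 151, 147 and 146 CPM in WT and 106 and 107 CPM in KO (log2 change -0.47, adjusted p = 0.00553). Both deubiquitinases and Txnl1 kept their calls with each library left out. Adrm1, the ubiquitin receptor that holds Uchl5, was at 195, 190.2 and 196 CPM in WT and 162 and 143 CPM in KO (log2 change -0.34 ± 0.08, adjusted p = 0.0256). The small lid subunit Sem1 overlapped between the groups, with 67.7 to 72.6 CPM in WT and 73.0 and 61.8 CPM in KO (adjusted p = 0.748). The 7 that fell became 3, 3 and 4 without WT1, WT2 or WT3, 8 without KO1 (with 1 higher) and 11 without KO2, and Adrm1 was lost without each WT library (adjusted p = 0.107, 0.0912 and 0.103; range over its alternatives 0.000242 to 0.19).

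Of 10 genes known to control proteasome genes 3 fell and 1 rose, beside 20.4% of all tested genes in each direction. The shares of all tested genes with a library left out are those given above for the members. The one that rose was Nfe2l1 itself, with 392, 402 and 374 CPM in WT and 641 and 678 CPM in KO1 and KO2 (log2 change 0.76 ± 0.08, adjusted p = 0.00367). The RNA of this activator was thus higher in both KO libraries while most subunit RNAs were lower. Its call held with each library left out (highest adjusted p = 0.0359) but not with the replicate number as a block (adjusted p = 0.066; range over its alternatives 1.71e-16 to 0.066). Nfe2l2, its relative in the oxidative stress response, was at 261.5, 261 and 258 CPM in WT and 185 and 207 CPM in KO (log2 change -0.41 ± 0.08, adjusted p = 0.0154). Ddi2, the protease that activates the Nfe2l1 protein, was at 84.1, 82.9 and 85.2 CPM in WT, 47.2 CPM in KO1 and 79.4 CPM in KO2 (log2 change -0.41 ± 0.22, adjusted p = 0.182). Nfyb, a subunit of the CCAAT-binding factor, was at 32.4, 28.2 and 30.2 CPM in WT and 21.8 and 21.2 CPM in KO (log2 change -0.49, adjusted p = 0.0135). The 3 that fell became 0, 1 and 0 without WT1, WT2 or WT3, 4 without KO1 and 7 without KO2, and the 1 that rose became 3 without KO1. Nfe2l2 was lost without each WT library (adjusted p = 0.0797, 0.0748 and 0.0704; range over its alternatives 1e-04 to 0.144).

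Genes that supply ubiquitin or carry ubiquitinated proteins to the proteasome fell in 4 of 15 cases (26.7%, beside 20.4% of all tested genes), with 0 higher (median log2 change -0.16). The shuttle factor Ubqln2 was at 102, 95.4 and 101 CPM in WT and 67.5 and 69.1 CPM in KO (log2 change -0.54 ± 0.07, adjusted p = 0.00451). Its relative Ubqln1 was at 319, 308 and 315 CPM in WT and 236 and 239 CPM in KO (log2 change -0.40, adjusted p = 0.0108). Uba1, the main ubiquitin-activating enzyme, was at 723, 691 and 718 CPM in WT and 562 and 458 CPM in KO (log2 change -0.48, adjusted p = 0.0262). Without WT1, WT2 or WT3 neither Ubqln1 nor Uba1 passed, while Ubqln2 did. The fourth was the shuttle factor Rad23b (adjusted p = 0.0442). The polyubiquitin gene Ubb did not pass, with 1387 to 1477 CPM in WT and 1412 and 1604 CPM in KO (adjusted p = 0.604, and 0.0467 without KO1; range over its alternatives 0.0467 to 0.917). Without WT1, WT2 or WT3 the 4 became 1, 1 and 1, without KO1 8 (with 5 higher) and without KO2 7.

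**Figure D4:**
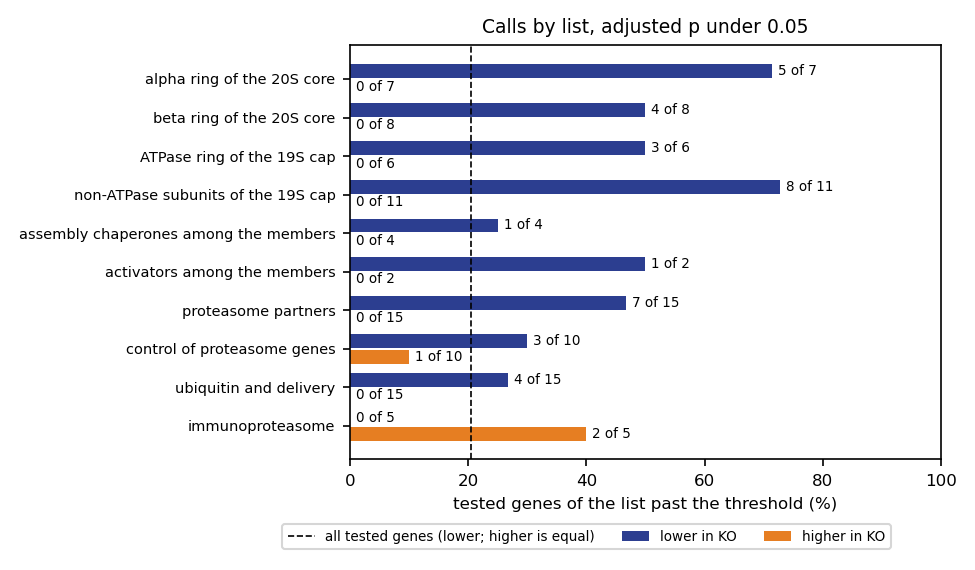
Share of the tested genes of each list that were lower (blue) or higher (orange) in KO at an adjusted p under 0.05, with the counts beside the bars; the dashed line is the share over all tested genes, 20.4% in each direction. The alpha ring (5 of 7) and the non-ATPase subunits (8 of 11) have the highest shares lower, and of the inducible genes 0 of 5 were lower and 2 of 5 higher.

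The KO libraries differed from each other in the same direction in most members. KO2 was below KO1 in 35 of 39 members, against 49.8% of all tested genes, and the member median relative to WT was -0.28 in KO1 and -0.53 in KO2. The exceptions were Psmc2, Psmc6, Psme3 and Psmb11. The inducible genes had the same order, with KO2 below KO1 in 5 of 5, but there KO1 lay farther from WT (median 0.92 in KO1 and 0.19 in KO2).

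The assignment of reads was uncertain for a few members. Counts were not whole in at least 1 library for 7 tested members, Psma3, Psma4, Psmb11, Psmd9, Psmd11, Psme4 and Psmc3ip, where reads were divided with another locus. In the deposited coordinates 5 members overlap a neighbouring gene that spans under 1 Mb, Psma4, Psmd1, Psmd10, Psme4 and Psmc3ip, and without a stated strand setting reads in the overlap cannot be told apart.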

How the data were processed

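The authors deposited 1 table of 17657 genes. Per the submitters' processing notes, its expected counts come from RSEM 1.3.1 and build GRCm38.p6, with reads that match several genes divided by probability. The deposited TPM values, per the file headers, are scaled by length within each library. The 5 FPKM columns were left aside. Aligner, strand setting and annotation release: not given in the sources used here.

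Libraries were grouped by title. Expected counts were rounded, and edgeR 4.0.16 in R 4.3.3 compared the groups (filterByExpr by group, TMM factors 0.988 to 1.02, quasi-likelihood test, two-sided, Benjamini-Hochberg over all tested genes, threshold 0.05, no covariate). Standard errors come from the test statistic. A list is described by its counts and median beside all tested genes, with no set test. The method was tested on simulated data with the same spread in both groups and changes larger than those of most members. It was not tested with the unequal spread seen here. Members, lists and promoter patterns were chosen with earlier results of these data known. Values per library are given for the 3 members of each subunit list with the smallest p, those with the largest and smallest change, the catalytic subunits, Psmd4, Psmd14, Psmc3ip, chaperones, activators, inducible genes, and, from other lists, the 3 genes with the smallest p and Adrm1, Sem1, Nfe2l1, Nfe2l2 and Ddi2. Ubb, Rad23b and the single cell type markers were chosen after their values were seen.

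Other settings tried were scaling by total counts or by the size factors of DESeq2, the tests of DESeq2 1.42.0 and limma-voom (limma 3.58.1, also with a separate spread per group), no count filter, a mean of at least 50 counts, limma on log2 TPM (pseudocount 1 or 0.1, mean TPM at least 1, or pseudocount 1 and no minimum), the replicate number as a block, and each library left out. By identifier, 40 members were matched in RefSeq's gene table (GRCm38.p6), and 35 of them have identical coordinates there.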

Additional observations from a re-analysis of the deposited data

How the results depend on the processing

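Under scaling by total counts or DESeq2's size factors, the DESeq2 and limma-voom tests, no count filter, the stricter count filter and the 3 settings on TPM, the counts of members, core and cap genes that fell stayed within 1.5 times the reported ones, and 0 rose. With a separate spread per group 5 core genes fell in place of 9. With the replicate number as a block 3 members, 0 core genes and 2 cap genes fell (17, 5 and 10 at an unadjusted p under 0.05). The numbers are not shown to pair the libraries, since libraries with the same number deviated together only weakly (correlations 0.00714 and 0.0676 over genes), and that fit leaves few degrees of freedom. With each library left out, the genes that fell numbered 8 to 34 for the members, 2 to 13 for the core and 5 to 15 for the cap, and those that rose 0 to 1 for the members and 0 to 1 for the cap. The 1 that rose was Psmd8, without KO2. As a median over subunits in place of the sum, the KO level of the cap was 68.6% of WT, against 75.7%. Of the single genes named, cell type markers aside, 7 changed sign in 1 setting each, when a KO library was left out. Without KO2 and without KO1, the log2 changes were 0.032 and -0.12 for Psmb1, 0.18 and -0.44 for Psmd10, 0.0935 and -0.26 for Psme4, 0.084 and -0.18 for Sem1, -0.37 and 0.072 for Psmc2, -0.0079 and 0.16 for Ubb, and 0.698 and -0.51 for Psmb10. The cause of these changes was not tested. At about 21 counts per CPM, depth limits only Psma8 and Psmb11.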
